A study of Drosophila melanogaster with 8 samples.

Results

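The genes described here encode subunits of the 5 oxidative phosphorylation complexes and cytochrome c. They were taken from the count table by name, as every row whose symbol began with a current or older prefix of such a subunit (ND- or ND with a digit, COX or Cox with a digit, CoI, CoV, UQCR, ATPsyn, SdhA to SdhD, Cyt-c, RFeSP or mt:, or the name blw). This gave 21 of 16727 genes, which were 3 subunits of complex I, 3 of complex II, 1 of complex III, 6 of complex IV, 6 of complex V and 2 cytochrome c genes. All 21 are encoded in the nucleus, since 0 rows carried the prefix mt: of the mitochondrial genome. The rule used names and no measured value, but it was chosen with earlier results of these data known. The table gives 14 of them under an older name, such as CoVIb for COX6B, and current symbols are used below. A further 51 subunits stand in the table under names without these prefixes, mostly CG numbers, and are counted apart.

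The study induced the C9orf72 repeat expansion in the neurons of adult flies and asked which pathways changed early. All flies were adult females labelled w1118 with the genotype (G4C2)36; elavGS, so every library carried both the transgene of 36 repeats and the neuronal driver elavGS, a GeneSwitch that is active only with the drug RU486 (mifepristone). The 4 induced libraries came from flies kept 5 d on food with 200 µM RU486 and the 4 uninduced libraries from age-matched flies kept 5 d on food with ethanol. The age at the start is not given in the sources used here. Each library held polyadenylated RNA of 15 pooled whole heads. No library had RU486 without the repeat, so that the drug and the repeat cannot be told apart. In bulk heads, fewer cells of a type cannot be told apart from less RNA per cell. The p-values measure the spread between these libraries.

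Oxidative phosphorylation makes most of a neuron's ATP. Complex I takes electrons from NADH and complex II from succinate, and both pass them through ubiquinone to complex III and through cytochrome c to complex IV, where oxygen is reduced. Complexes I, III and IV pump protons out of the mitochondrial matrix, and complex V, the ATP synthase, lets them return and forms ATP. Most subunits are encoded in the nucleus and imported, while a few core subunits of complexes I, III, IV and V are made inside the mitochondrion. Photoreceptors and synapses in the fly head are rich in mitochondria.

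Library totals were 13247282 to 14962813 counts. The composition factors of the TMM normalization were 0.913 to 0.954 in the uninduced and 1.036 to 1.081 in the induced libraries, so this scaling lowered every induced library against its total and raised every uninduced one. Of 9905 genes tested with edgeR, 18.8% were lower and 17.7% were higher on induction at a Benjamini-Hochberg adjusted p under 0.05, which is the meaning of lower, higher, fell and rose below. The labelled tissue was checked on its markers, and both the photoreceptor opsin ninaE (26940 and 27390 CPM in uninduced and induced libraries) and the synaptic gene nSyb (925 and 937 CPM) were abundant. Levels are CPM, counts of a gene scaled to a common library size, on the TMM scale unless another scale is named, and a value after ± is the SD over 4 libraries or, where named, the SE.

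Transcripts of the respiratory chain and ATP synthase were lower in induced heads relative to the other genes, by a small amount. Of the 21 subunits, 17 were lower, 0 were higher and 4 were not called, beside 18.8% lower and 17.7% higher among all genes tested. The 17 were also those in which every induced library lay below every uninduced library, which held for 17.9% of all genes tested. The median log2 fold change of the 21 was −0.20, against 0.001 for all genes tested, and the range was −0.33 to 0.06. The 4 subunits not called were ND-75, SdhA, SdhB and Cyt-c-d. With library totals as the only scaling, 3 of 21 were lower and 3 higher, beside 8.82% lower and 45.3% higher among all genes tested.

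The summed level of the 21 subunits was 7898, 7629, 7456 and 8154 CPM in uninduced replicates 1 to 4 and 6858, 6685, 6706 and 6731 CPM in induced replicates 1 to 4. All 4 induced libraries lay below all 4 uninduced ones, and they differed among themselves by less. As a share of all counts of a library, without composition factors, the same genes took 0.7105% to 0.744% in the uninduced and 0.707% to 0.727% in the induced libraries, and these ranges overlapped. The decrease is thus one relative to the other genes of the heads.

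**Figure D1:**
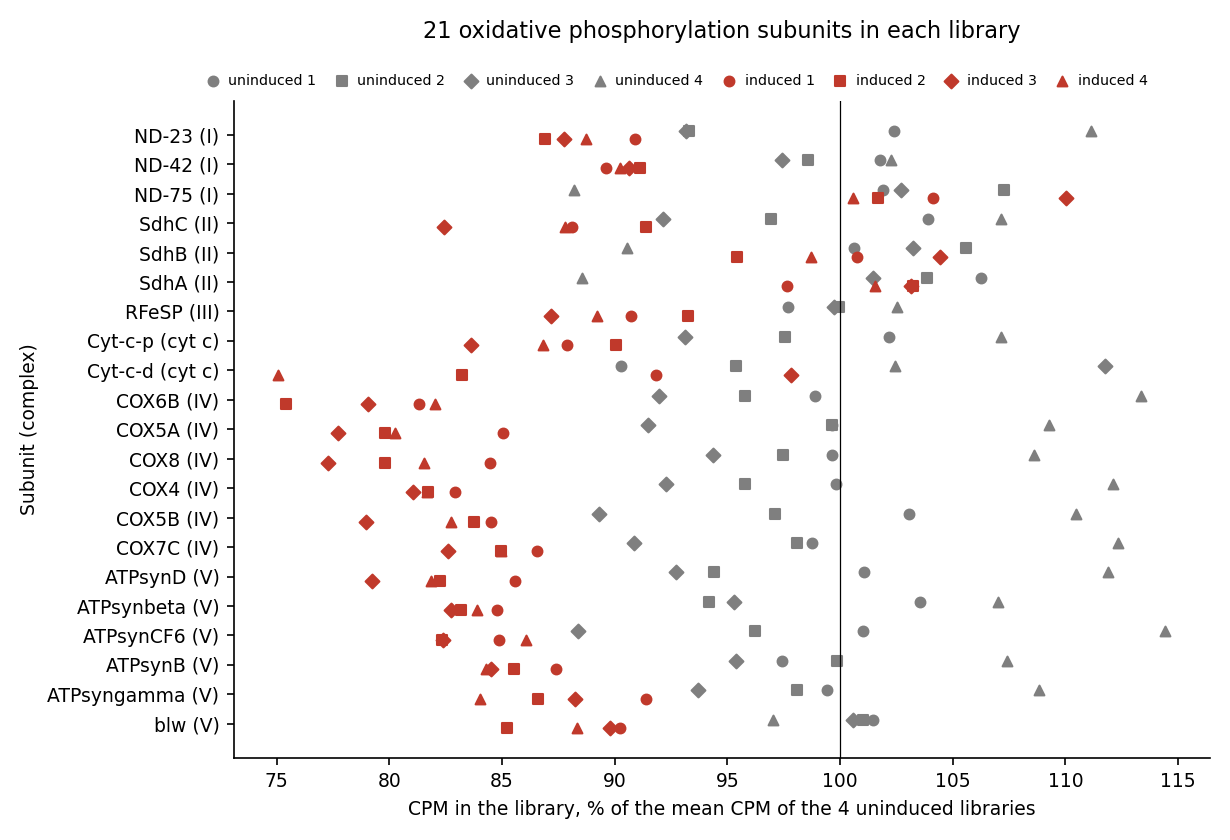
Level of each of the 21 subunits in each library, as a percent of the mean CPM of the 4 uninduced libraries, on the TMM scale. Grey symbols are uninduced and red symbols induced libraries, and the symbol shape gives the replicate. For 17 subunits all red symbols lie to the left of all grey ones, and the exceptions are ND-75, SdhB, SdhA and Cyt-c-d.

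Complex IV, cytochrome c oxidase, had the lowest median among the complexes, with 6 of 6 subunits lower and a median log2 fold change of −0.30. With library totals as the only scaling 3 of the 6 were lower and 0 higher, beside 8.82% lower and 45.3% higher among all genes tested. All 6 are small nuclear-encoded subunits that surround the catalytic core made in the mitochondrion. COX6B, a subunit on the intermembrane space side where cytochrome c docks, was at 368, 357, 342 and 422 CPM in uninduced replicates 1 to 4 and at 303, 281, 294 and 305 CPM in induced replicates 1 to 4. Every induced library was below the lowest uninduced one, and uninduced replicate 4 was the highest. COX6B fell by 20.6% (log2 fold change −0.33 ± 0.06 SE, edgeR adjusted p = 0.000718), the lowest fold change of the 21. COX7C, a small membrane-spanning subunit, had the smallest decrease of the complex. Its level was 215, 213, 197 and 244 CPM in the uninduced and 188, 185, 179.5 and 185 CPM in the induced libraries, again with no overlap (log2 fold change −0.24 ± 0.06 SE, edgeR adjusted p = 0.00489).

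The other 4 subunits of complex IV lay between these values. COX4, a subunit that binds adenine nucleotides in mammals, was at 333 ± 28.8 CPM (SD, n = 4) in the uninduced and 273 ± 2.61 CPM in the induced libraries. COX5A, on the matrix side, was at 344 ± 25.1 and 278 ± 10.7 CPM, and COX5B, which binds zinc, was at 179.5 ± 16.1 and 148 ± 4.42 CPM. COX8, a membrane-spanning subunit and the shortest transcript of the 21, was at 114 ± 6.96 and 91.9 ± 3.44 CPM. Its log2 fold change of −0.31 ± 0.05 SE had the smallest adjusted p of all 21 subunits (edgeR, 0.00029).

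Complex V, the ATP synthase, had 6 of 6 subunits lower and a median log2 fold change of −0.24. With library totals as the only scaling 0 were lower and 0 higher, beside 8.82% lower and 45.3% higher among all genes tested. The catalytic head of the synthase holds alpha subunits (blw) and beta subunits (ATPsynbeta) around the rotating gamma subunit (ATPsyngamma). A peripheral stalk that includes ATPsynB, ATPsynD and ATPsynCF6 holds the head still. ATPsynbeta, which carries the catalytic sites, was at 1866, 1697, 1717 and 1928 CPM in uninduced replicates 1 to 4 and at 1528, 1499, 1491 and 1512 CPM in induced replicates 1 to 4. The groups did not overlap, and the induced libraries were closer together than the uninduced ones. ATPsynbeta fell by 16.35% (log2 fold change −0.26 ± 0.05 SE, edgeR adjusted p = 0.00167).

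The lowest fold change of complex V belonged to ATPsynD, a subunit of the stalk, at 344, 321, 316 and 381 CPM in the uninduced and 291, 280.1, 269.7 and 279 CPM in the induced libraries (log2 fold change −0.28 ± 0.06 SE, edgeR adjusted p = 0.00166). The smallest decrease was that of blw, at 1401, 1395, 1389 and 1340 CPM in the uninduced and 1246, 1177, 1240 and 1220 CPM in the induced libraries (log2 fold change −0.18 ± 0.05 SE, edgeR adjusted p = 0.00727). Neither gene overlapped between groups. For blw uninduced replicate 4 was the lowest of its group, while for the other 5 subunits of complex V it was the highest. ATPsyngamma (338 ± 21.6 and 296 ± 10.4 CPM, SD, n = 4), ATPsynB (321.5 ± 16.9 and 275 ± 4.5 CPM) and ATPsynCF6 (216 ± 23.7 and 181 ± 4.06 CPM) had log2 fold changes of −0.19, −0.23 and −0.25.

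In complex I, NADH dehydrogenase, 2 of 3 subunits were lower. With library totals as the only scaling 0 were lower and ND-75 was higher, as were 45.3% of all genes tested. ND-23, a core subunit that carries iron-sulphur clusters, was at 136, 124, 124 and 148 CPM in uninduced replicates 1 to 4 and at 121, 115.4, 116.5 and 118 CPM in the induced libraries. The groups did not overlap, but uninduced replicates 2 and 3 lay close to induced replicate 1. Its log2 fold change was −0.18 ± 0.06 SE (edgeR adjusted p = 0.0247), and it was no longer called when uninduced replicate 1 or 4 or induced replicate 2, 3 or 4 was left out, with log2 fold changes from −0.18 to −0.11. ND-42, an accessory subunit, was lower at 175 ± 4.17 against 159 ± 1.1 CPM (SD, n = 4; log2 fold change −0.15). ND-75, the core subunit of the peripheral arm with the most iron-sulphur clusters, was at 276, 290.4, 278 and 239 CPM in the uninduced and 282, 275, 298 and 272 CPM in the induced libraries. These overlapped, and the log2 fold change was 0.06 ± 0.06 SE (edgeR adjusted p = 0.478).

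Complex II, succinate dehydrogenase, pumps no protons and has no subunit made in the mitochondrion, and it is also an enzyme of the tricarboxylic acid cycle. Of its 3 subunits 1 was lower. With library totals as the only scaling 0 were lower and SdhA and SdhB were higher, as were 45.3% of all genes tested. SdhA, the flavoprotein that oxidizes succinate, was at 332, 324, 317 and 276.5 CPM in the uninduced and 305, 322, 322 and 317 CPM in the induced libraries, and SdhB, the iron-sulphur subunit, was at 149.9, 157, 154 and 135 CPM and at 150.1, 142, 156 and 147 CPM. Both overlapped between groups, and in both uninduced replicate 4 was the lowest of its group. The log2 fold changes were 0.02 ± 0.06 SE for SdhA (edgeR adjusted p = 0.815) and −0.002 ± 0.053 SE for SdhB (edgeR adjusted p = 0.98), so each 1 SE range held zero. SdhC, which anchors the enzyme in the membrane, was at 131, 122, 116 and 135 CPM in the uninduced and 111, 115.4, 104 and 111 CPM in the induced libraries. Its induced libraries all lay below the uninduced ones, with induced replicate 2 close to uninduced replicate 3, and its log2 fold change was −0.20 ± 0.05 SE (edgeR adjusted p = 0.0109).

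RFeSP, the Rieske iron-sulphur protein and the only complex III subunit among the 21, was at 234, 239.8, 239 and 246 CPM in the uninduced and 218, 224, 209 and 214 CPM in the induced libraries. The groups did not overlap and the log2 fold change was −0.15 ± 0.04 SE (edgeR adjusted p = 0.0114). Cyt-c-p, the cytochrome c gene used in most fly tissues, was at 414, 395, 377 and 434 CPM in the uninduced and 356, 365, 338.5 and 351.5 CPM in the induced libraries, also without overlap (log2 fold change −0.20 ± 0.05 SE, edgeR adjusted p = 0.00699). Cyt-c-d, known for its part in the male germ line, was at 12.8 ± 1.19 and 11.1 ± 1.27 CPM (SD, n = 4). It overlapped between groups and had the same fold change with a larger error (log2 fold change −0.20 ± 0.10 SE, edgeR adjusted p = 0.132). Of its 837 bp of exon, 305 bp are shared with CG31808 on the other strand.

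The 17 lower subunits each had an exact two-sided permutation p of 0.0286 on log2(CPM + 0.1), the smallest that 4 against 4 libraries allow. The corresponding p was 0.457 for ND-75, 0.886 for SdhA, 1 for SdhB and 0.143 for Cyt-c-d. Exons of 8 of the 21 genes overlap another annotated gene, by 38 to 305 bp, and whether the counting used strand is not given in the sources used here. They are SdhA, SdhB, RFeSP, Cyt-c-d, COX5A, COX6B, COX7C and ATPsynbeta. For COX6B the partner, CG18809, lies on the same strand and shares 74 of 789 bp. In the BDGP6 annotation, in dm6 coordinates, COX6B (FBgn0031066) lies at chrX:19740537-19744335, COX8 (FBgn0263911) at chr3L:21538859-21539447, ATPsynbeta (FBgn0010217) at chr4:1031484-1034917, Cyt-c-p (FBgn0284248) at chr2L:16719932-16722644 and ND-75 (FBgn0017566) at chrX:8248651-8251687. Cyt-c-d (FBgn0086907) is the neighbour of Cyt-c-p on chromosome 2L, at chr2L:16715891-16719635.

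The 51 further subunits, found through synonyms, add most of complex I, the rest of complex III and the remaining subunits of complexes II, IV and V. Of these 49 were tested, and 42 were lower and 0 higher, beside 18.8% lower and 17.7% higher among all genes tested. With library totals as the only scaling 5 were lower and 0 higher, beside 8.82% lower and 45.3% higher among all genes tested. On the TMM scale the median log2 fold change was −0.26 and the range was −0.38 to −0.04. In complex I 26 of 29 were lower, in complex II 1 of 1 (SdhD, the other membrane anchor, −0.16), in complex III 5 of 8, in complex IV 3 of 4 and in complex V 7 of 7. Medians of the further subunits in complexes I and III were −0.245 and −0.244. Over both sets 59 of 70 tested subunits were lower and 11 were not called. The lowest values were those of ATPsynO, which joins the stalk to the head of the synthase (253 to 195 CPM, log2 fold change −0.38 ± 0.06 SE, edgeR adjusted p = 0.000333), and ND-MLRQ, a small protein counted here with complex I by its name (209 to 162 CPM, −0.37 ± 0.05 SE, edgeR adjusted p = 4.55e-05). ATPsynC, the subunit of the rotating ring, went from 1526 to 1265 CPM (−0.27 ± 0.05 SE, edgeR adjusted p = 0.0013).

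The 7 further subunits not called were ND-51, ND-49, ND-30, Cyt-c1, UQCR-C1, UQCR-C2 and COX7A. Among them are core enzyme parts, namely ND-51, which binds NADH, ND-49 and ND-30, which take part in electron transfer to ubiquinone, and Cyt-c1, which hands electrons to cytochrome c. UQCR-C1 and UQCR-C2 are the core proteins of complex III that face the matrix. Their fold changes were all below zero, from −0.11 to −0.04. For ND-51 and Cyt-c1 every induced library was nevertheless below every uninduced one, with edgeR adjusted p of 0.0632 and 0.0513. Other core subunits of complex I were lower, namely ND-23, ND-20 and ND-24, at log2 fold changes of −0.18, −0.245 and −0.21. The core subunit ND-75 was not called. Exons of ND-51, ND-49, Cyt-c1, UQCR-C1 and UQCR-C2 are 1521 to 1686 bp long, and those of ND-30 and COX7A 976 and 697 bp. Whether core and accessory subunits differ was not tested.

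**Figure D2:**
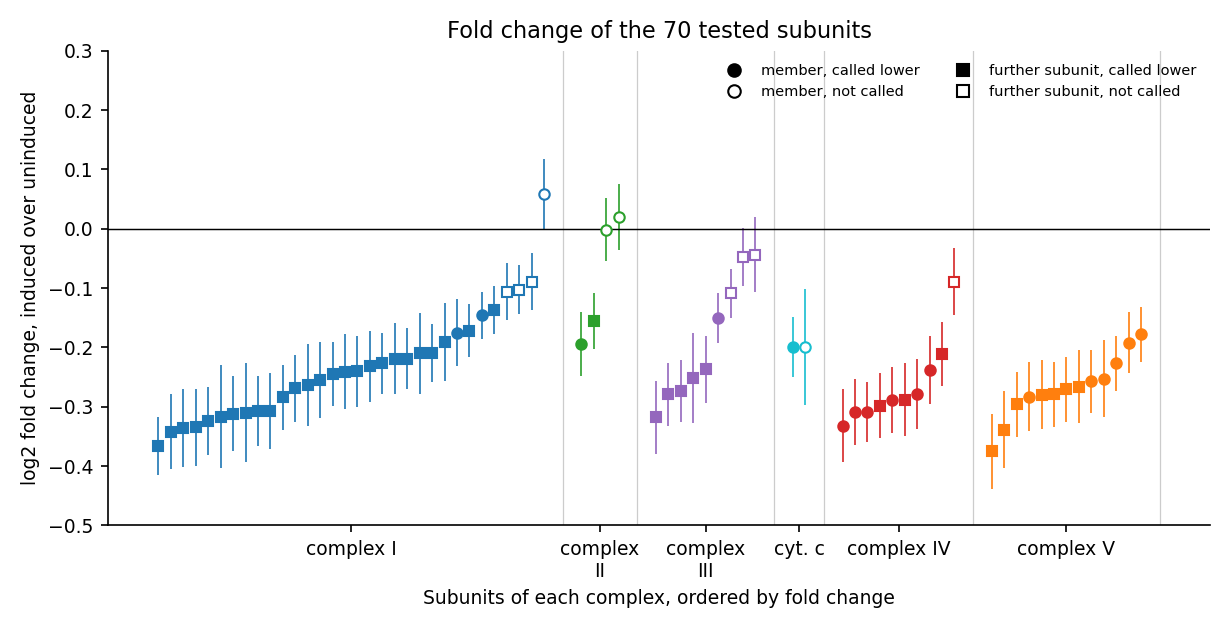
Log2 fold change, induced over uninduced, of the 70 tested subunits by complex, with bars of 1 SE. Circles are the 21 members, squares the further subunits, and filled symbols are called lower. The estimates lie between −0.38 and 0.06, and only ND-75 and SdhA lie above zero. With library totals as the only scaling the medians of the members of complexes I, II and III are above zero. Those of the further subunits of complexes I and III are then below zero, at −0.066 and −0.065.

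Levels per kilobase of exon allow the 21 subunits to be set beside each other. Among these 21, ATPsynbeta was the highest in uninduced heads at 755 ± 47.4 CPM per kb (SD, n = 4), followed by blw at 613 ± 12.3 and Cyt-c-p at 594.5 ± 35.9, of which the last pair differed by less than 1 SD. COX6B at 472 ± 44.1 and COX5A at 433 ± 31.6 CPM per kb came next among the 21 and also lay within their spread of each other. Those of complexes I and II among the 21 were lower in level, from ND-23 at 162 ± 13.9 and SdhC at 139 ± 9.38 to SdhB at 122 ± 8.09, SdhA at 114 ± 8.97, ND-42 at 108 ± 2.58 and ND-75 at 103 ± 8.46 CPM per kb. Cyt-c-d was the lowest at 15.2 ± 1.42 CPM per kb. Among the further subunits ATPsynC stood above ATPsynbeta and ND-MLRQ above ND-23, with ATPsynC at 817 ± 48.8 and ND-MLRQ at 389 ± 22.2 CPM per kb. Apart from Cyt-c-d, the 21 genes are thus strongly expressed as counts. All but Cyt-c-d, 20 of the 21, stood among the 2476 genes tested that had the highest mean CPM. Of these 2476 genes 33.2% were lower, and their median log2 fold change was −0.03.

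The uninduced libraries were not alike in these genes. Uninduced replicate 4 was the highest of its group for 16 of the 21 subunits and the lowest for ND-75, SdhA, SdhB and blw, and uninduced replicate 3 was the lowest for 14. The 4 subunits in which replicate 4 was lowest have exons of 2634, 2750, 1219 and 2252 bp, while the 16 in which it was highest range from COX8 with 513 bp to ATPsynbeta with 2386 bp. Against the mean of the other uninduced libraries, replicate 4 had a median log2 difference of 0.19 over all genes with under 1000 bp of exon and of −0.02 over longer genes, and replicate 3 of −0.11 and 0.02. Without uninduced replicate 4, 16 of 21 subunits were lower and 0 higher, beside 17.7% lower and 17.6% higher among all genes tested, and their median was −0.17.

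Exon length moved with the fold change in the subunits and in the whole table. Over 9799 genes with a length, the median log2 fold change was −0.10 under 1000 bp, where 26.3% of genes were lower, and 0.02 at 1000 bp or more, where 17.5% were lower. Of the 21 subunits, 11 of 12 under 1000 bp were lower (median −0.25) and 6 of 9 longer ones (median −0.15). Over both sets of subunits 43 of 46 short and 16 of 24 longer genes were lower. Across the 21 subunits the fold change correlated with log2 exon length with Pearson's r = 0.64 and Spearman's rho = 0.60, across all 70 tested subunits with 0.52 and 0.49, and across all genes with 0.13 and 0.23. Genes are not independent replicates, the subunits share their libraries, and no p is given.

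With an offset for each gene and library that took out the smooth trend on exon length, 13 of 21 subunits were lower and 0 higher, beside 19.7% lower and 18.7% higher among all genes tested. Their median moved from −0.20 to −0.13. These 13 were all 6 subunits of complex IV, all 6 of complex V and ND-42, while ND-23, SdhC, RFeSP and Cyt-c-p were no longer called. Of the further subunits 33 were lower. The class of 1000 bp and the offset were chosen after the data were seen.

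**Figure D3:**
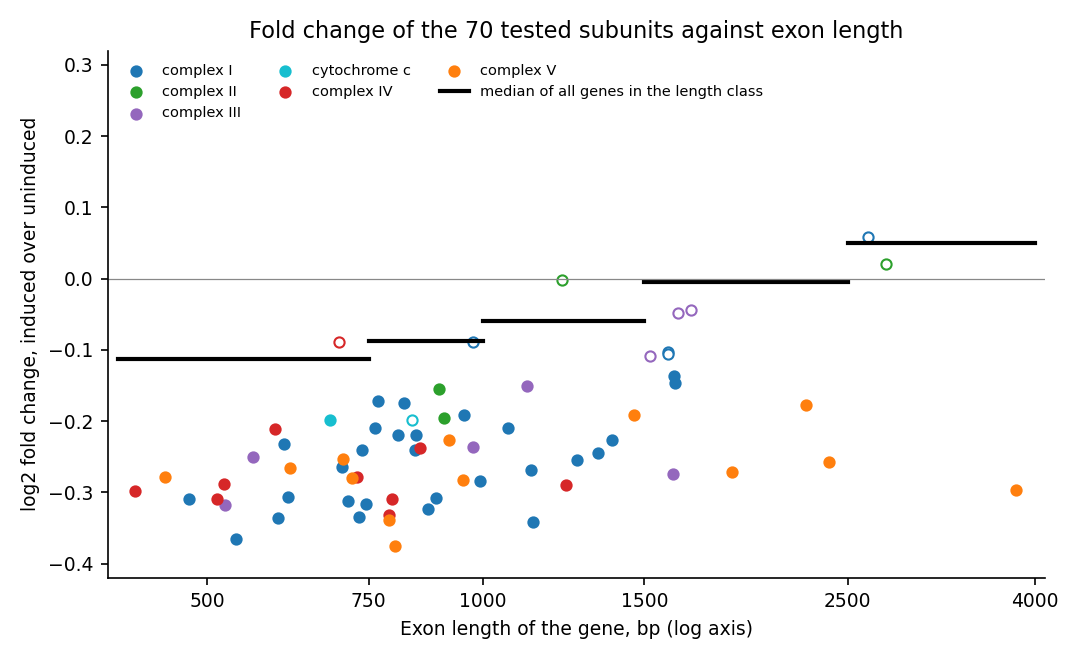
Log2 fold change, induced over uninduced, of the 70 tested subunits against exon length on a log axis, coloured by complex. Filled points are called lower and open points are not called, and black lines are the median of all genes in the same length class, from −0.11 under 750 bp to 0.05 from 2500 bp to under 4000 bp. Most subunits lie below the line of their class, and the open points are mostly at 1000 bp or more.

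The size of the decrease depended on the scaling. With library totals as the only scaling, the median of all genes tested moved from 0.001 to 0.18. The 3 subunits then lower were COX5A, COX6B and COX8, the 3 higher were ND-75, SdhA and SdhB, and the median of the 21 was −0.02. Relative to the median of all genes the subunits stood at −0.20 under TMM and at −0.20 under library totals. Both scalings use a single factor per library, which moves all genes nearly alike, so this equality follows by construction. Under library totals the medians of the members of complexes IV and V were −0.12 and −0.06. Those of complexes I, II and III, with 3, 3 and 1 members, were above zero at 0.03, 0.17 and 0.03. The further subunits had medians of −0.066 for complex I (29 tested), 0.024 for II (1 tested) and −0.065 for III (8 tested). For complexes IV and V they were −0.071 and −0.101.

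The 8 fat body markers, genes such as the yolk proteins Yp1 and Yp3 that the fat body secretes in large amounts, took 13.4% to 13.9% of all counts in the uninduced and 9.73% to 11.9% in the induced libraries, and 8 of 8 were lower. With these genes left out of the library totals, and no composition factors, 7 of 21 subunits were lower (COX4, COX5A, COX5B, COX6B, COX8, ATPsynbeta and ATPsynD) and 1 was higher (ND-75), beside 11% lower and 36.6% higher among all genes tested. The median was −0.07 against 0.13 for all genes. This scaling was added after the data were seen.

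**Figure D4:**
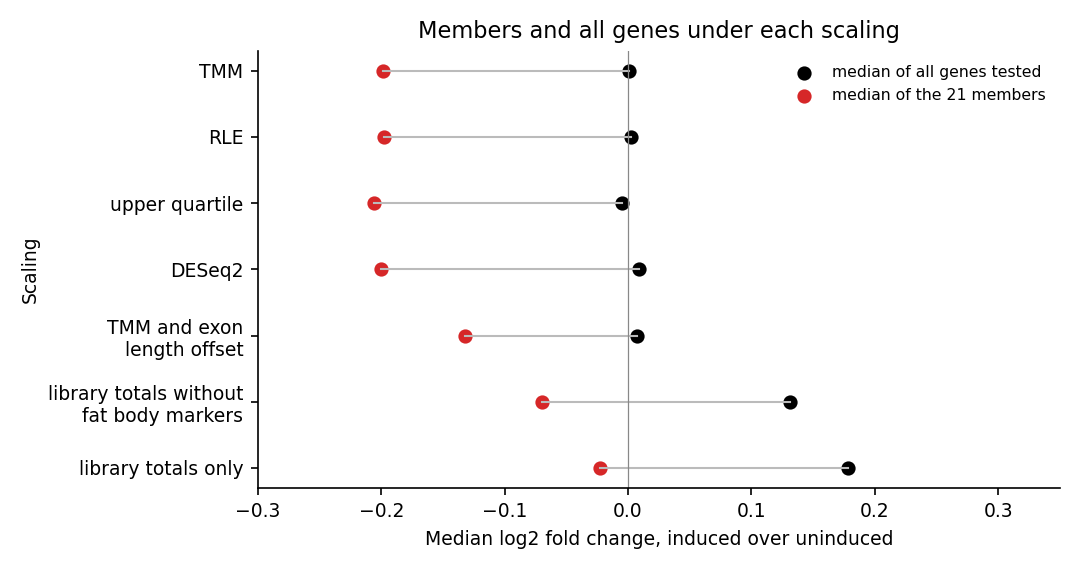
Median log2 fold change, induced over uninduced, of the 21 subunits (red) and of all genes tested (black) under 7 scalings. The subunits stand at −0.21 to −0.20 relative to all genes in all but the exon length offset, where they stand at −0.14. The position of both against zero differs, with the median of all genes at 0.18 and that of the subunits at −0.02 under library totals only. Scalings by a single factor per library move all genes nearly alike, so the distance of the subunits from all genes is fixed in them by construction.

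Other genes of the pathway did not move with the subunits as a list. Of 43 genes written, 41 were matched and 38 tested. Of these 6 were lower and 6 higher, beside 18.8% lower and 17.7% higher among all genes tested. With library totals as the only scaling 3 were lower and 18 higher, beside 8.82% and 45.3% of all genes tested. Among 10 tested assembly factors, proteins that build the complexes without staying in them, 0 were lower and 1 was higher. This was Ttc19, a complex III assembly factor, which rose from 22.3 ± 0.907 to 32.7 ± 1.07 CPM (SD, n = 4; log2 fold change 0.55 ± 0.06 SE, edgeR adjusted p = 4.26e-06). Of the 9 tested genes for the maintenance and expression of mitochondrial DNA, 1 was lower and 1 higher. They were mtSSB, which binds single strands of that DNA (10.6 to 8.88 CPM), and tam, the catalytic subunit of its polymerase (5.05 to 6.16 CPM, log2 fold change 0.29 ± 0.10 SE, edgeR adjusted p = 0.0395).

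Of the genes that deliver electrons to ubiquinone beside complexes I and II, Gpo1, Etf-QO and wal had lower fold changes than any subunit, while Dhod, of pyrimidine synthesis, was higher (34.95 to 39.4 CPM). Gpo1, the mitochondrial glycerol 3-phosphate dehydrogenase, was at 255 ± 17.4 CPM in the uninduced and 166 ± 7.34 CPM in the induced libraries (SD, n = 4; log2 fold change −0.62 ± 0.06 SE, edgeR adjusted p = 9.12e-07). Etf-QO and wal, which carry electrons from fatty acid and amino acid oxidation, fell by 0.60 and 0.47 on the log2 scale. In this list of 11, with the ubiquinone synthesis genes, 4 were lower and 2 higher. Of 5 transporters only porin, the channel of the outer membrane, was lower (721 to 656 CPM, −0.14 ± 0.04 SE, edgeR adjusted p = 0.0249), while sesB, the adenine nucleotide translocase, was at 2168 ± 52.4 and 2053 ± 61 CPM and was not called.

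Among 3 regulators of mitochondrial genes, srl, the fly gene of the PGC-1 family of coactivators, rose from 25.8 ± 5.47 to 41.9 ± 4.13 CPM (SD, n = 4; log2 fold change 0.70 ± 0.12 SE, edgeR adjusted p = 0.000373). In flies srl is known to promote the expression of mitochondrial genes. Ets97D was also higher, from 13.4 to 15.8 CPM with overlapping groups, and ewg was not called.

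Markers of other cell types were read beside the subunits. The 10 neuronal markers had a median log2 fold change of 0.02, with 3 lower and 2 higher, and their summed level was 3341 to 3669 CPM in the uninduced and 3480 to 3702 CPM in the induced libraries. The 13 photoreceptor markers had a median of 0.008, with 1 lower and 2 higher, and summed to 50270 to 52550 and 50660 to 53570 CPM. The 11 muscle markers, from a tissue rich in mitochondria, had a median of 0.03, with 0 lower and 2 higher, and summed to 4323 to 4911 and 4476 to 4924 CPM. In these 3 lists the groups overlapped. As a share of all counts, without composition factors, the neuronal markers took 0.305% to 0.35% and 0.367% to 0.4%. The photoreceptor markers took 4.59% to 5.01% and 5.34% to 5.79%, so that both lists were higher in every induced library. With library totals as the only scaling 45.3% of all genes tested were also higher, and the median log2 fold change of all genes tested was 0.18.

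The fat body markers, by contrast, summed to 140900 to 152300 CPM in the uninduced and 90020 to 114800 CPM in the induced libraries, without overlap, at a median log2 fold change of −0.59. The 7 glial markers summed to 1954 to 2048 and 1707 to 1834 CPM, also without overlap, while their shares of all counts overlapped. Their median log2 fold change was 0.13, with 2 lower and 3 higher, and Eaat1, the glial glutamate transporter, went from 450.4 to 245.5 CPM. Of the 5 haemocyte markers 4 were tested, with 2 lower and 1 higher, and their list summed to 126 to 157 and 185 to 233.5 CPM, of which Pxn gave 75.6 and 163 CPM. No marker in these lists was at 0 in a whole group. The part of fat body, glia and haemocytes in the level of the subunits was not tested.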

How the data were processed

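RNA-seq of the 8 head libraries was analysed from a table of the whole series. The authors aligned paired-end reads of 100 bp to Dm6 and deposited raw counts per gene and library, which were used here. For the aligner, counter, annotation release and strandedness, the sources used here give nothing. The deposited normalized values and the fold changes and p-values of the authors' DESeq2 comparison were not used.

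The main test was the quasi-likelihood test of edgeR 4.0.16 (R 4.3.3) after TMM and filterByExpr, with Benjamini-Hochberg adjustment over the 9905 genes that passed the filter and a threshold of 0.05. All 21 subunits passed. The SE of a log2 fold change is its absolute value divided by the square root of F. Exact two-sided permutation tests used log2(CPM + 0.1), with 0.5 as an alternative to 0.1. The code was tested on simulated data. Library totals of 13247282 to 14962813 counts set the precision.

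Older names were matched to current symbols through RefSeq synonyms, and exon lengths and positions came from the BDGP6 annotation. The members and lists were chosen with earlier results of these data known. The rule for named genes took the lowest and highest fold change and the highest level per length in each complex, the paralog with the most counts among names ending in L, and in each pathway list the called gene with the largest absolute log2 fold change. The other members, the further subunits named, mtSSB, Etf-QO, wal, Dhod, Ets97D, sesB, Eaat1 and Pxn were added after their values were seen.

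Alternatives were RLE, upper quartile and totals-only scaling, DESeq2 1.42.0, dropping the filter or requiring 10 counts in each library, a replicate block, and leaving out each library.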

Additional observations from a re-analysis of the deposited data

How the results depend on the processing

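RLE, upper quartile, DESeq2 and the replicate block changed no call among the 21 subunits, and no filter or at least 10 counts in every library left 17 lower. Same-numbered libraries did not deviate together over the genes tested (correlations −0.07 to 0.02). Their labels share only the number, and a common batch that moved few genes would not show in these correlations. With the replicate block the median was −0.20 and 17 were lower and 0 higher.

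With library totals only, 3 subunits were lower and 3 higher, and 5 further subunits were lower. The other pathway genes gave 3 lower and 18 higher, beside 8.82% lower and 45.3% higher among all genes tested. The medians were −0.023 for the 21 and −0.085 for the further subunits. The 21 gave 0.032 for complex I, 0.173 for II, 0.027 for III, −0.12 for IV, −0.062 for V and −0.022 for cytochrome c. Their summed level was 98.0% of the uninduced one, against 86.6% under TMM. ND-23 (0.003), ND-42 (0.032), RFeSP (0.027) and SdhB (0.173) changed sign. With the fat body markers out of the totals, 7 subunits were lower and 1 higher, and 20 further subunits were lower. The pathway genes gave 3 lower and 12 higher, beside 11% lower and 36.6% higher among all genes tested. The medians were then −0.07 for the 21, −0.133 for the further subunits, −0.016, 0.126 and −0.021 for complexes I, II and III, −0.168 and −0.11 for IV and V and −0.069 for cytochrome c, with SdhB at 0.126. With the exon length offset the medians were −0.132 for the 21, −0.148 for the further subunits, −0.066 for complex I, −0.072 for III, −0.189 for IV, −0.16 for V and −0.088 for cytochrome c, with SdhA at −0.006 and SdhB at 0.067.

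Complex II, whose median is that of SdhB, was at 0.003 with no filter and 0.007 with at least 10 counts. No filter gave 3 lower pathway genes and DESeq2 gave 3 higher ones. Why the values changed was not tested beyond the construction of each scaling. Leaving out each library gave 16 to 17 lower subunits with medians of −0.23 to −0.17, 38 to 42 lower further subunits, 3 to 7 lower and 2 to 6 higher pathway genes, a summed level of 85.4% to 88.0%, and values of −0.15 to −0.113 for complex I, −0.039 to 0.03 for complex II and SdhB and −0.027 to 0.057 for SdhA.

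Leaving out rows named mt: could not be run, since 0 rows carry that prefix. Depth limits chiefly Cyt-c-d, with 150 to 197 counts per library, and the paralogs.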

Other observations

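The table lists 25 paralogs of the subunits under other names, many of which are known in flies from the testis. Of these 24 were not tested, with at most 17 counts in a library, and 5 were at 0 in every library. COX7CL had the most counts of those not tested, at 4 to 9 in the uninduced and 7 to 17 in the induced libraries. The only paralog tested was COX7AL2, a relative of COX7A of complex IV, at 204 to 274 counts in the uninduced and 222 to 309 in the induced libraries (log2 fold change −0.16, edgeR adjusted p = 0.271). The 25 paralogs summed to 20.4 to 25.0 CPM in the uninduced and 19.7 to 24.1 CPM in the induced libraries, which overlapped.

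Of the further subunits of complex I, ND-MNLL was at 0 counts in every library and ND-B8 at 5 to 12. All 720 bp of the exons of ND-MNLL lie within those of CG45089 on the same strand. Ccdc56, mtTFB1 and mtDNApol35 of the pathway lists were also at 0 in every library. Ccdc56 and mtTFB1 have the same annotated position and strand, and exons of mtDNApol35 overlap those of GatC on the same strand. How reads shared between genes were counted is not known, so the zeros of these genes and ND-MNLL cannot be read as absent expression. In none of the 52 groups of libraries examined, which were the 21 subunits and the summed levels of the 21 and of complexes I, II, IV and V in each condition, did a library stand apart by Dixon's criterion.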
